A study of Mus musculus with 13 samples.

Results

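The mevalonate arm of cholesterol synthesis was described here by 9 genes, namely Acat2, Hmgcs1, Mvk, Pmvk, Mvd, Idi1, Fdps, Fdft1 and Ggps1. They were chosen by symbol, of 24445 gene symbols in the count table, and for each symbol the transcript row with the highest total was used. All 9 passed the filter on low counts and were among the 11904 genes tested. They do not cover every step of the arm.

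The RNA came from bone marrow-derived macrophages of female C57Bl/6J mice, grown from marrow in medium conditioned by L929 cells. Control mice carried the floxed Acly allele (Acly fl/fl; the labels call them WT). AclyM-KO mice carried the same floxed allele together with Lyz2-Cre, in which the LysM promoter drives the recombinase in myeloid cells. Both genotypes received lipopolysaccharide (LPS), the bacterial outer membrane component that activates macrophages, for 3 h or 24 h, and no untreated cells were analysed here. Each group had 3 libraries except control at 24 h, which had 4. The labels do not say that replicates came from separate mice, so p-values measure the spread between these samples, which may be technical.

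Control 24 h replicate 1 held 34467 counts and was left out of the fit, so 12 libraries with 3 per group were compared, the control 24 h group being replicates 2, 3 and 4. The totals of these 12 ran from 21274102 to 59577343 counts. The targeted gene, Acly, which encodes the enzyme that makes cytosolic acetyl-CoA from citrate, fell in AclyM-KO by 1.34 on the log2 scale after 3 h (adjusted p = 6.41e-16) and by 1.88 after 24 h (adjusted p = 4.81e-20). These counts cover the whole transcript, not the floxed exon alone. All 8 macrophage markers on the list were above 1 CPM (counts scaled to library size) in every group. Their sum ran from 9984 to 10080 CPM in control and 6915 to 7852 CPM in AclyM-KO at 3 h, and from 6031 to 6333 CPM and 4523 to 4627 CPM at 24 h. Of the 8, Lyz2 alone, whose locus carries the Cre, was called changed, with log2 fold changes of -0.97 after 3 h and -1.40 after 24 h. The part of these levels in the results was not tested. The neutrophil markers summed to between 2.26 and 8.76 CPM, with Ly6g and Retnlg at 0 in every group, and no other cell type list exceeded 2.69 CPM in any library. In bulk samples, fewer cells of a type and less RNA per cell cannot be told apart.

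The mevalonate arm turns acetyl-CoA, the product of Acly, into isoprenoid building blocks. Farnesyl diphosphate stands at its branch point, from which squalene leads on to cholesterol and geranylgeranyl diphosphate to the lipid anchors of small GTPases. Its genes are textbook targets of SREBP2, the transcription factor that is released from the endoplasmic reticulum when membrane sterols run low.

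SREBP2 targets are known for a sterol regulatory element and nearby CCAAT boxes, so the bases before the transcription start were searched for both. RefSeq promoter windows on GRCm38.p6 were found for 7 of the 9 genes (Acat2, Hmgcs1, Mvk, Pmvk, Mvd, Idi1 and Ggps1), and the 250 bases upstream of the start were searched on both strands. The motif TCACNCCAC was found in Hmgcs1 alone, against 1.22% of all genes with a window. CCAAT, whose reverse complement reads ATTGG, was found in 6 of the 7 genes, all but Acat2, against 37.5% of all genes. Where a gene had several windows, a match in any of them counted, here and over all genes. Of the Pmvk windows, the one from chr3:89454291 holds CCAAT and the one from chr3:89459321, inside the gene, does not. The Idi1 window ends at chr13:8885605, past the GENCODE start of the gene at 8885501, and its CCAAT boxes lie beyond that start. The E-box CACGTG was in none of the 7, against 6.86%, and the GC box GGGCGG was in 5, against 35.4%. None of the matches in capitals overlap. Hmgcs1 is shown as the window with the sterol element, Mvk as the one with the most CCAAT boxes, and Mvd as one with a single box on each strand. Capitals mark TCACNCCAC and CCAAT matches on either strand. The Hmgcs1 window lies at chr13:119690101-119690350 on the plus strand, the Mvk window at chr5:114444061-114444268 on the plus strand, cut to 208 bases where an exon of the neighbouring gene Mmab begins, and the Mvd window at chr8:122443423-122443672 on the minus strand. All are read 5′ to 3′ towards the gene.
Hmgcs1: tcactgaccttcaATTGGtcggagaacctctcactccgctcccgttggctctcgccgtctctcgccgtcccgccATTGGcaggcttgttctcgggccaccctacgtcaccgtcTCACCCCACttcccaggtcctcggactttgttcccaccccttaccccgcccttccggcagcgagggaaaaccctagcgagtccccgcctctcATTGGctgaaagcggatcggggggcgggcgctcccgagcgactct
Mvk: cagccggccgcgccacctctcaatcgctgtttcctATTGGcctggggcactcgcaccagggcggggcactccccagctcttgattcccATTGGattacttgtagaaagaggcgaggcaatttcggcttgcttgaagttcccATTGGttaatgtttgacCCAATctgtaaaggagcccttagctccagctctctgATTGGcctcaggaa
Mvd: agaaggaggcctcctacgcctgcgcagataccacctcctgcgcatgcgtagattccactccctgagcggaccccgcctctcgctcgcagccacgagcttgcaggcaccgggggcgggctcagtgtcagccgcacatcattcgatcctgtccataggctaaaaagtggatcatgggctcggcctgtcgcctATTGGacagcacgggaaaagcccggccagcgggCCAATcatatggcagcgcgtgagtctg
Counted from the transcription start, the sterol element TCACCCCAC of Hmgcs1 begins at position -137, between CCAAT boxes at -176 and -45. A match is a description of the letters and not of a bound site.

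The first comparison asked how loss of Acly changed the arm early in the LPS response. After 3 h of LPS, 6 of the 9 genes rose in AclyM-KO macrophages and none fell. They were Acat2, Mvk, Pmvk, Mvd, Idi1 and Fdps, with fold changes from 2.15 to 3.29. A gene was called changed at an adjusted p under 0.05, from edgeR's quasi-likelihood test with Benjamini-Hochberg adjustment, and a log2 fold change beyond 0.75. Over all genes tested, 2.01% passed both thresholds and 1.41% passed them upwards. The median log2 fold change of the 9 genes was 1.17, against -0.01 over all genes.

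**Figure D1:**
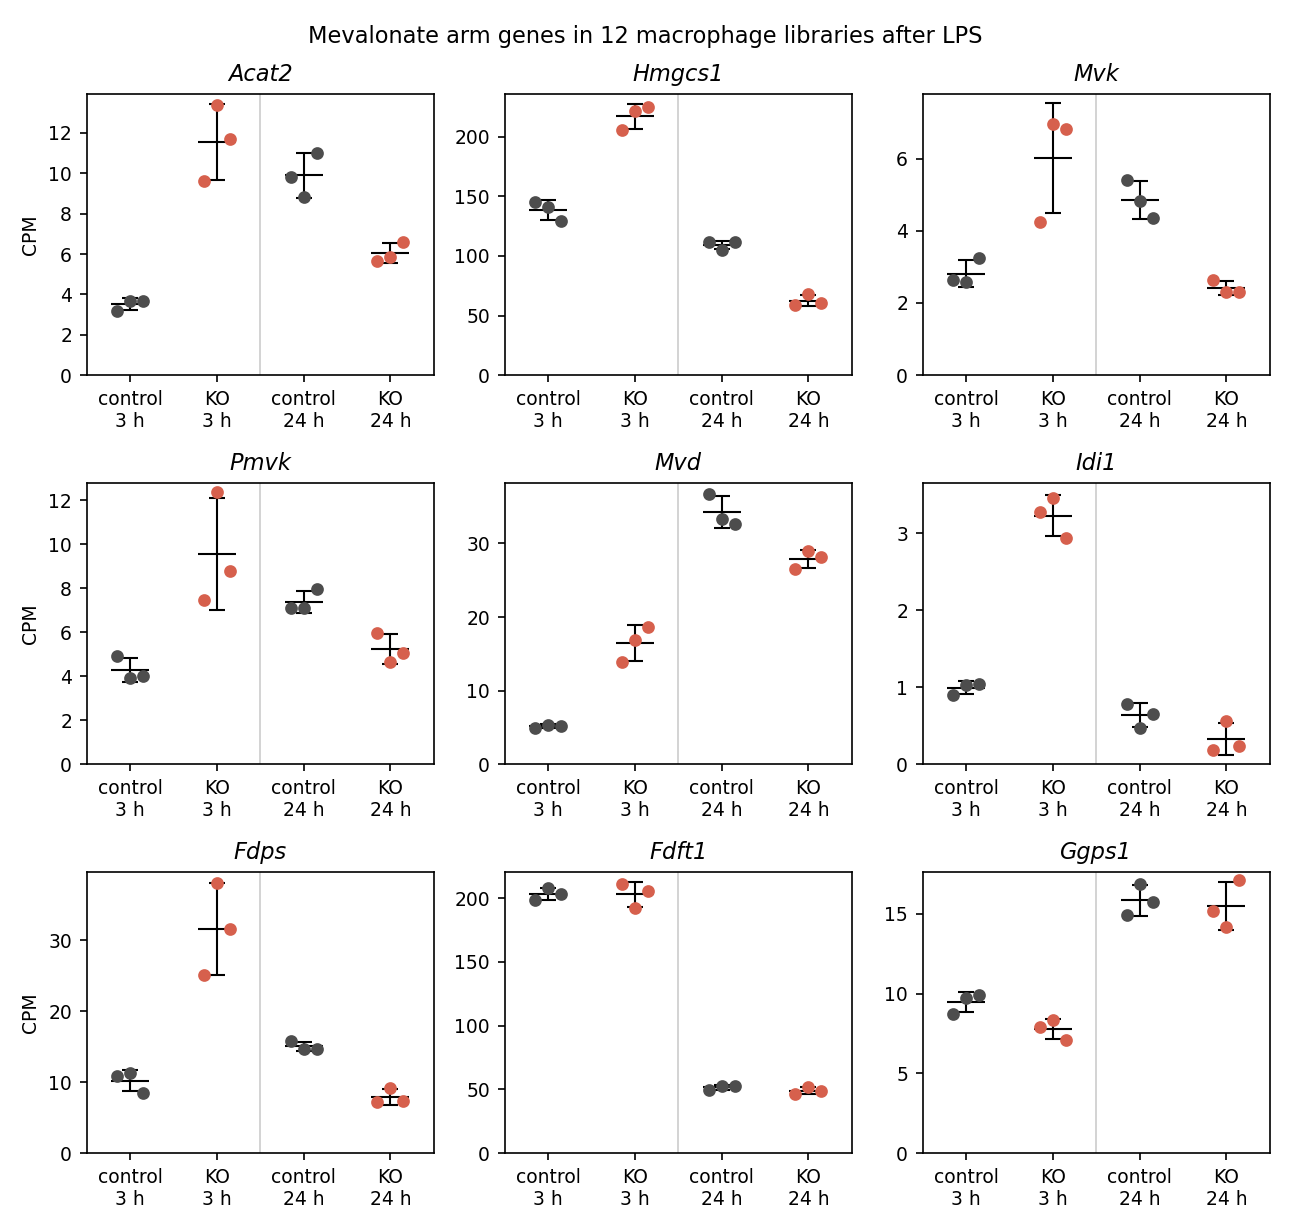
CPM of the 9 mevalonate arm genes in each of the 12 libraries, with grey points for control and red points for AclyM-KO (KO), horizontal bars for group means, error bars for 1 SD and linear axes from 0. At 3 h the red points lie above the grey ones in 7 panels, and at 24 h below them in 6.

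Acat2, on chr17:12942890-12960747 and encoding the cytosolic thiolase that joins acetyl-CoA units at the entry to the arm, was at 3.18, 3.70 and 3.69 CPM in the control libraries at 3 h and at 9.63, 13.4 and 11.7 CPM in the AclyM-KO libraries. The lowest AclyM-KO library was well above the highest control, and the log2 fold change was 1.72 ± 0.139 (SE, adjusted p = 3.4e-10). After 24 h the order was turned, with 9.84, 8.83 and 11.03 CPM in control and 5.67, 5.83 and 6.601 CPM in AclyM-KO. The groups again did not overlap, and the log2 fold change of -0.73 ± 0.119 (SE, adjusted p = 5.52e-05) was just short of the fold threshold, which it passed without KO 24 h replicate 3 or control 24 h replicate 3 (-0.80 in each). Of the 50-base stretches of the Acat2 transcript, 45.9% also occur in Acat3, a neighbouring near-copy, so reads could be split between them. Acat3 itself stood at 16 to 17.95 CPM in control and 12.8 to 14.5 CPM in AclyM-KO at 3 h (log2 fold change -0.30, adjusted p = 0.0251), the opposite side from Acat2 and inside the fold threshold. Acat1, the mitochondrial thiolase, had log2 fold changes of -0.25 at 3 h (adjusted p = 0.0548) and -0.02 at 24 h (adjusted p = 0.904).

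Hmgcs1, on chr13:119690379-119708260, encodes the cytosolic HMG-CoA synthase and at 3 h was, with Fdft1, far above the other 7 genes in CPM. Control libraries held 145, 141 and 129 CPM at 3 h and AclyM-KO libraries 205, 222 and 224 CPM. The groups were apart, but the log2 fold change of 0.65 ± 0.0572 (SE, adjusted p = 1.49e-09) was smaller than the fold threshold. At 24 h control libraries held 111, 105 and 111 CPM and AclyM-KO libraries 59.2, 67.8 and 60.3 CPM. Hmgcs1 fell, with a log2 fold change of -0.81 ± 0.0588 (SE, adjusted p = 4.29e-11). No 50-base stretch of its transcript occurs in another gene outside its locus, where the antisense model Gm48342 shares 557 of its exon bases.

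The kinases and the decarboxylase that carry mevalonate on to isopentenyl diphosphate moved in the same directions as Acat2. Mvk, on chr5:114444269-114460591 and encoding mevalonate kinase, was at 2.63, 2.57 and 3.24 CPM in control at 3 h and at 4.25, 6.95 and 6.83 CPM in AclyM-KO. It rose by a log2 fold change of 1.10 ± 0.178 (SE, adjusted p = 4.94e-05), with replicate 1 the lowest AclyM-KO library. At 24 h it was at 5.41, 4.82 and 4.35 CPM in control and at 2.63, 2.29 and 2.30 CPM in AclyM-KO, so each AclyM-KO library lay below every control. Mvk fell by 0.99 on the log2 scale (SE 0.172, adjusted p = 0.000124).

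Pmvk, on chr3:89454541-89469013, encodes phosphomevalonate kinase. It was at 4.92, 3.93 and 3.99 CPM in control at 3 h and at 7.48, 12.4 and 8.80 CPM in AclyM-KO. It rose by a log2 fold change of 1.17 ± 0.16 (SE, adjusted p = 9.55e-06), with replicate 2 the highest AclyM-KO library. At 24 h the values were 7.09, 7.12 and 7.97 CPM in control and 5.97, 4.67 and 5.07 CPM in AclyM-KO. The groups did not overlap, and the log2 fold change of -0.51 ± 0.147 (SE, adjusted p = 0.0185) was inside the fold threshold.

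Mvd, on chr8:122433601-122443422, encodes the decarboxylase that yields isopentenyl diphosphate. It was at 4.92, 5.38 and 5.19 CPM in control at 3 h and at 13.9, 16.9 and 18.7 CPM in AclyM-KO. It rose by a log2 fold change of 1.68 ± 0.11 (SE, adjusted p = 4.01e-12), the smallest adjusted p of the 9 genes at 3 h. At 24 h control libraries held 36.7, 33.4 and 32.6 CPM and AclyM-KO libraries 26.5, 28.9 and 28.2 CPM. The difference had turned but was small, with a log2 fold change of -0.29 ± 0.0783 (SE, adjusted p = 0.0103), inside the fold threshold.

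Idi1, on chr13:8885501-8892451, encodes the isomerase that makes the allylic partner, dimethylallyl diphosphate. It was the least abundant of the 9 genes, with 18, 22 and 21 counts in control at 3 h, or 0.89, 1.03 and 1.05 CPM, and 64, 79 and 61 counts in AclyM-KO, or 3.28, 3.46 and 2.93 CPM. These groups were far apart, and the log2 fold change was 1.70 ± 0.254 (SE, adjusted p = 1.83e-05). At 24 h the counts were 19, 11 and 43 in control and 5, 14 and 6 in AclyM-KO, and in CPM the groups overlapped through AclyM-KO replicate 2 (0.56 CPM) and control replicate 3 (0.47 CPM). The log2 fold change of -0.98 ± 0.364 (SE, adjusted p = 0.07) did not pass the test. Without AclyM-KO replicate 2 it was -1.60 (adjusted p = 0.0135), so 1 library decides this call. Of the 50-base stretches of the Idi1 transcript, 21.3% occur in Gm13502, 323 exon bases are shared with Gm48574 on the opposite strand, and Idi2, the related isomerase gene, had 0 counts in every library analysed.

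Fdps, on chr3:89093588-89101959, encodes farnesyl diphosphate synthase at the branch point. It was at 10.8, 11.3 and 8.53 CPM in control at 3 h and at 25.2, 38.1 and 31.6 CPM in AclyM-KO. It rose by a log2 fold change of 1.63 ± 0.142 (SE, adjusted p = 1.17e-06). At 24 h it was at 15.8, 14.7 and 14.6 CPM in control and at 7.21, 9.21 and 7.37 CPM in AclyM-KO. Fdps fell by 0.92 on the log2 scale (SE 0.146, adjusted p = 0.000463), with no overlap between the groups. Its transcript shares 51.1% of its 50-base stretches with 7 other genes, most with Gm3571, and 1124 exon bases with the same-strand gene model Gm43738, so its count is uncertain where reads could be split.

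Fdft1 and Ggps1, which use farnesyl diphosphate, stood apart from the other 7. Fdft1, on chr14:63145150-63179578, encodes squalene synthase, the step that commits the arm to sterols. It was at 198, 208 and 203 CPM in control at 3 h and at 211, 192 and 205 CPM in AclyM-KO. These groups overlapped, and the log2 fold change of -0.003 had a 95% interval from -0.11 to 0.10 (adjusted p = 0.981). At 24 h it was at 49.5, 52.9 and 52.6 CPM in control and at 46.4, 51.9 and 48.9 CPM in AclyM-KO, again overlapping (log2 fold change -0.08, 95% interval -0.19 to 0.03, adjusted p = 0.415). Of the 50-base stretches of the Fdft1 transcript, 10.9% also occur in Gm6781. The gene shares 774 exon bases with Ctsb, which encodes the protease cathepsin B, on the opposite strand. Ctsb held 2953527 counts over the libraries against 34995 for Fdft1, and its own log2 fold changes between genotypes were 0.01 at 3 h and 0.02 at 24 h. The libraries were strand-specific, but whether strand was used in the counting is not stated, and the part of the shared bases in the Fdft1 values was not tested.

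Ggps1, on chr13:14050659-14063488, encodes geranylgeranyl diphosphate synthase, which feeds protein prenylation rather than sterols. It was at 8.74, 9.73 and 9.92 CPM in control at 3 h and at 7.94, 8.35 and 7.12 CPM in AclyM-KO. The AclyM-KO libraries all lay below the controls, but the log2 fold change of -0.28 ± 0.108 (SE, adjusted p = 0.0844) did not pass the test. At 24 h it was at 14.96, 16.9 and 15.8 CPM in control and at 15.2, 14.2 and 17.2 CPM in AclyM-KO, which overlapped (log2 fold change -0.03, adjusted p = 0.855). It shares 257 exon bases with Arid4b on the opposite strand.

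Counted by overlap alone, all 3 AclyM-KO libraries lay above all 3 controls at 3 h for 7 of the 9 genes and below them for 1, Ggps1, where 15.3% of all genes lay above and 14.7% below. At 24 h they lay below for 6 of the 9 and above for none, where 14.9% of all genes lay below and 18.2% above. By the test and the fold threshold, 3 of the 9 genes fell at 24 h, namely Hmgcs1, Mvk and Fdps, and none rose. The background at 24 h was 1.38% of genes in either direction and 0.479% lower. The median log2 fold change of the 9 genes was -0.73, against 0.01 over all genes.

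**Figure D2:**
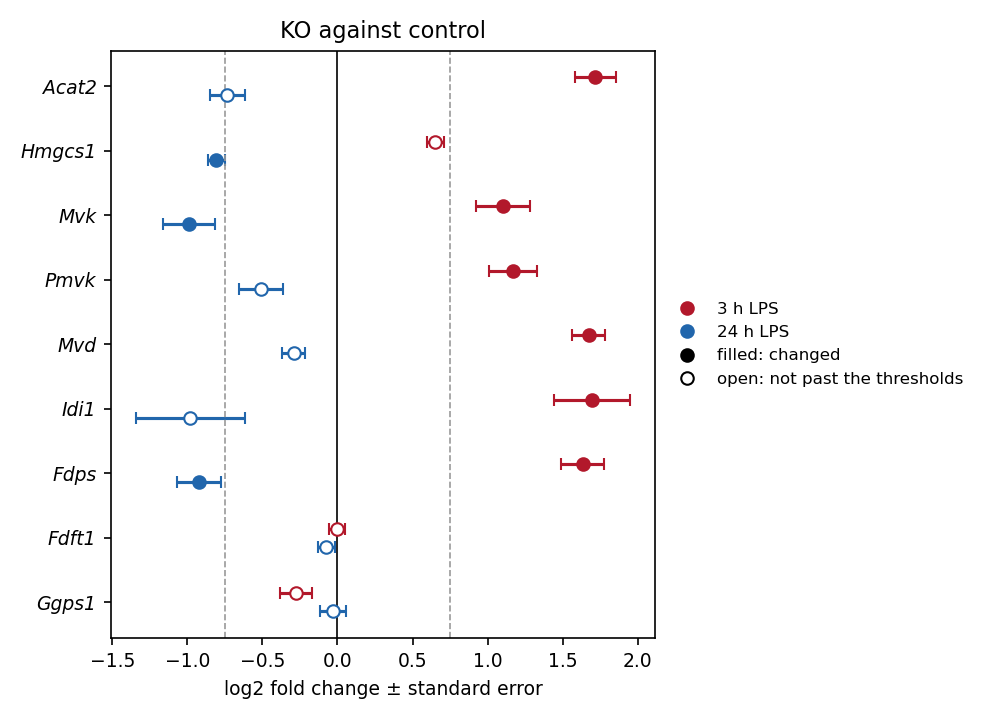
Log2 fold change of AclyM-KO against control with its standard error for each mevalonate arm gene, after 3 h (red) and 24 h (blue) of LPS, with filled points for changed genes and dashed lines at log2 fold changes of -0.75 and 0.75. Red points from Acat2 to Fdps lie right of 0 and blue ones left of it, while Fdft1 and Ggps1 stay within 0.28 of 0 at both times.

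Whether the effect of the genotype differed between the times was tested as an interaction, the log2 fold change of AclyM-KO against control at 24 h minus that at 3 h. It passed an adjusted p of 0.05 for 7 of the 9 genes, all negative, where 9.53% of all genes passed and 4.66% were negative. Idi1 was at -2.68 ± 0.442 (SE, adjusted p = 0.000127), Fdps at -2.56 (adjusted p = 8.59e-07) and Acat2 at -2.45 (adjusted p = 5.46e-11). Idi1, with the widest error of the 9, was at -2.40 without KO 24 h replicate 1 and at -3.30 without KO 24 h replicate 2, and DESeq2 gave it no adjusted p, so no order is drawn among these 3. Mvk was at -2.09 (adjusted p = 7.39e-07), Mvd at -1.97 (adjusted p = 1.14e-11), Pmvk at -1.68 (adjusted p = 8.65e-06) and Hmgcs1 at -1.46 (adjusted p = 1.43e-13). Fdft1, at -0.07 (95% interval -0.22 to 0.08, adjusted p = 0.626), and Ggps1, at 0.24 (95% interval -0.03 to 0.52, adjusted p = 0.296), did not pass. Being called higher at 3 h and lower at 24 h was met by 9 of all 11904 genes, or 0.0756%, and among the 9 members by Mvk and Fdps. A positive sign at 3 h with a negative sign at 24 h, with no threshold, was met by 7 members and by 21.3% of all genes. The 2 comparisons use different libraries.

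The time course of each genotype was compared with the same libraries. From 3 h to 24 h in control cells, 4 of the 9 genes rose (Acat2, Mvk, Pmvk and Mvd) and 1 fell (Fdft1), where 40.4% of all genes changed, 20.9% upwards and 19.5% downwards. Mvd, the decarboxylase, had the largest rise, by a log2 fold change of 2.72 (SE 0.101, adjusted p = 5.03e-21), and Acat2 rose by 1.51 (SE 0.136, adjusted p = 2.05e-11). Pmvk at 0.81 and Mvk at 0.77 were just past the fold threshold, and Ggps1 at 0.74 and Fdps at 0.55 (adjusted p = 0.00287) were inside it. Mvk was short of the threshold without control 24 h replicate 2 (0.69), control 3 h replicate 1 or control 3 h replicate 2, and Pmvk without control 24 h replicate 4 (0.73). Ggps1 passed it, at up to 0.79, without KO 3 h replicate 1, control 24 h replicate 2, control 3 h replicate 2 or control 3 h replicate 3. Hmgcs1 was at -0.34 (adjusted p = 4.17e-06), also inside it, and Idi1 at -0.62 did not pass (adjusted p = 0.0633). Fdft1, squalene synthase, fell by 1.97 (SE 0.0551, adjusted p = 3.84e-24). Ctsb, with which it shares exon bases, had a log2 fold change of -0.66 over the same time.

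In AclyM-KO cells all 9 genes changed from 3 h to 24 h, 7 of them downwards and 2 upwards. Of all genes 41.9% changed, 21.9% upwards and 2383 of 11904 downwards, so the 2 rises were near the upward share. Idi1 fell most, by 3.30 on the log2 scale (SE 0.298, adjusted p = 2.16e-11), which is a 9.86-fold difference. The log2 fold change was -2.05 for Fdft1, -2.003 for Fdps, -1.799 for Hmgcs1, -1.33 for Mvk, -0.94 for Acat2 and -0.87 for Pmvk. Mvd at 0.75 (adjusted p = 3.21e-09), at the edge of the fold threshold, and Ggps1 at 0.99 (adjusted p = 2.4e-10) rose. Acat2, Mvk and Pmvk therefore changed in opposite directions in the 2 genotypes, and their interactions are given above. Mvd rose in both and Fdft1 fell in both. Mvd in AclyM-KO was no longer past the fold threshold with DESeq2 (0.73), RLE size factors, 1 row per gene or only the compared groups, nor without KO 3 h replicate 1 (0.65), KO 24 h replicate 2 or KO 24 h replicate 3. Pmvk in AclyM-KO was at -0.66, short of it, without KO 3 h replicate 2.

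**Figure D3:**
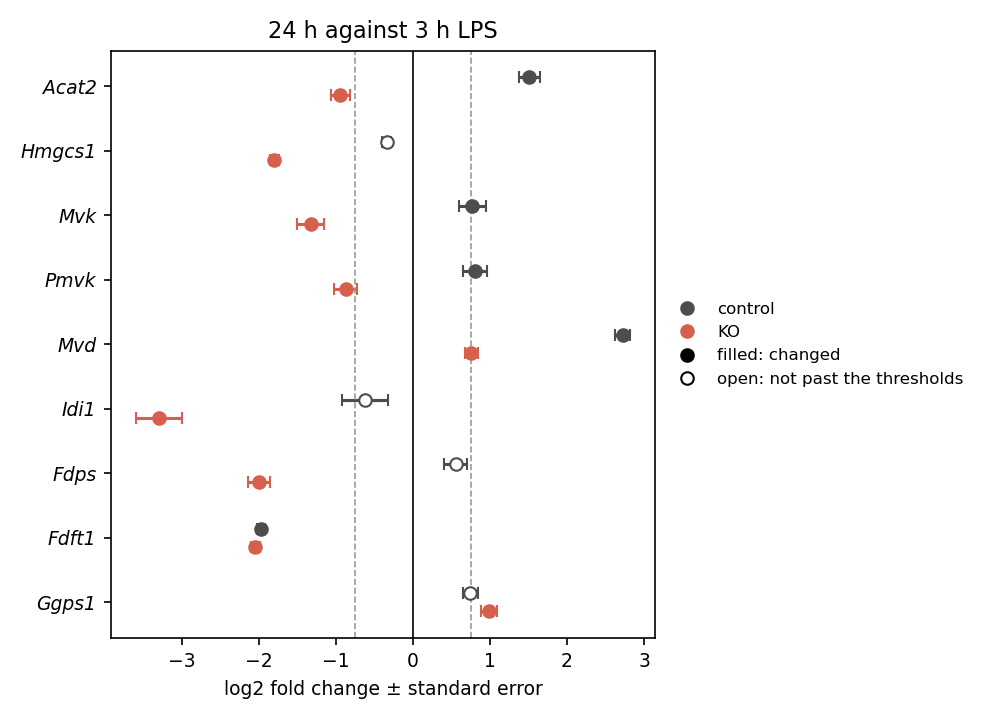
Log2 fold change from 3 h to 24 h of LPS with its standard error for each mevalonate arm gene, in control (grey) and AclyM-KO (KO, red) cells, with filled points for changed genes and dashed lines at log2 fold changes of -0.75 and 0.75. Acat2, Mvk and Pmvk lie right of 0 in control and left of it in KO, and Fdft1 lies near -2 in both.

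The abundance of the genes, compared per kilobase of transcript, spanned a wide range. In control cells at 3 h Fdft1 was highest at 55.0 CPM per kilobase, followed by Hmgcs1 at 42.6, Fdps at 7.39, Pmvk at 4.38, Mvd at 2.94, Ggps1 at 2.23, Mvk at 1.76, Acat2 at 1.57 and Idi1 at 0.33. Only Mvk and Acat2 overlapped among these neighbours. The place of Fdft1 rests on a row that shares exon bases with the far more abundant Ctsb, as given above. Those of Fdps, Acat2 and Idi1 rest on transcripts that share 51.1%, 45.9% and 21.3% of their 50-base stretches with other genes. Ggps1 was divided by the length of another of its RefSeq transcripts, as the counted one had no GENCODE match. The part of these in the order was not tested. In AclyM-KO cells at 3 h Hmgcs1, at 66.9 CPM per kilobase, stood above Fdft1 at 54.9, and Ggps1 moved down to the eighth place at 1.84. Pmvk at 9.77 and Mvd at 9.38 overlapped there, as did Acat2 at 5.14 and Mvk at 3.75.

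At 24 h Hmgcs1 led in both genotypes, with 33.6 CPM per kilobase in control and 19.2 in AclyM-KO. Mvd came second, at 19.5 in control and 15.9 in AclyM-KO, and Fdft1 followed at 13.97 and 13.3. Fdps, at 10.9 in control and 5.74 in AclyM-KO, overlapped with its lower neighbour Pmvk, at 5.35, in AclyM-KO alone. Acat2 and Ggps1 overlapped in control at 24 h, at 4.398 and 3.74. Idi1, the isomerase, was lowest in all 4 groups, down to 0.11 CPM per kilobase in AclyM-KO at 24 h. Summed over the 9 genes, the level was 378 ± 9.24 CPM in control and 506 ± 16.1 CPM in AclyM-KO at 3 h, and 249 ± 4.15 CPM in control and 177 ± 8.24 CPM in AclyM-KO at 24 h (SD, n = 3 each). Hmgcs1 and Fdft1 make up most of these sums, and the same limit holds for the part of Fdft1 with its exon bases shared with Ctsb.

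**Figure D4:**
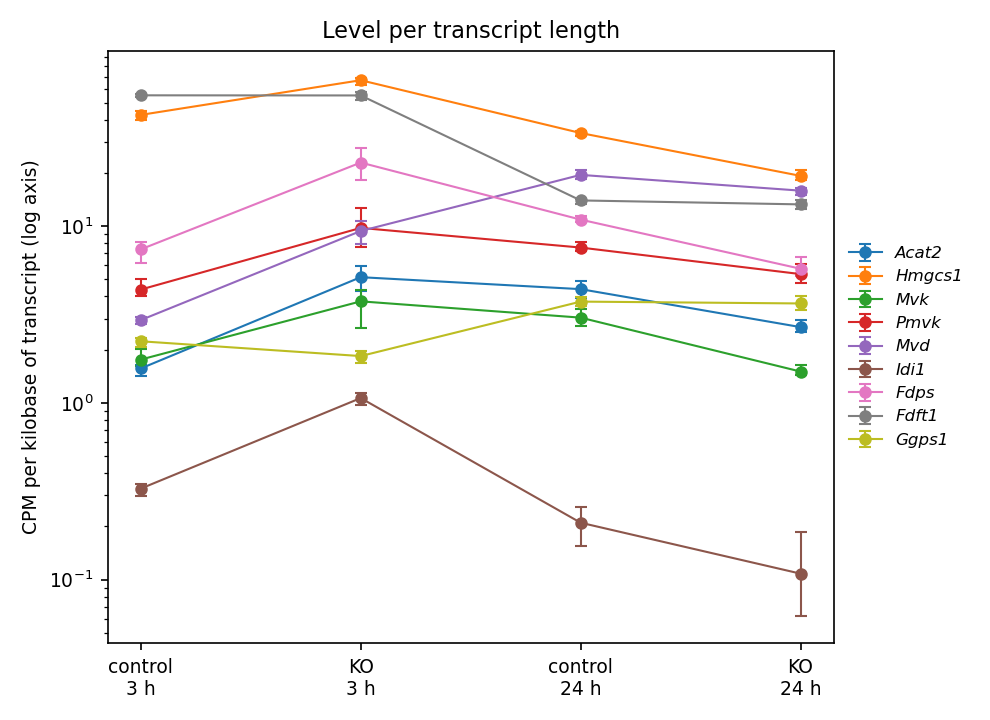
Level of each mevalonate arm gene in CPM per kilobase of transcript on a log axis, in the 4 groups, with points for means of 3 libraries, error bars for the lowest and highest library and lines joining the means of 1 gene. Idi1 is lowest in every group, and Mvd moves from 2.94 in control at 3 h to 19.5 in control at 24 h.

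The genes that lead on from the arm were taken from lists of textbook roles. Of 11 genes of the sterol steps after squalene, 10 rose in AclyM-KO at 3 h, all but Ebp, with a median log2 fold change of 1.30. Lss, which closes the sterol rings, was at 1.82 (adjusted p = 5.19e-06), and Sqle, which oxidises squalene, at 1.17 (adjusted p = 1.31e-09). The row of Fdft1, squalene synthase, at -0.003, thus stood between upstream and downstream genes that rose. It shares exon bases with Ctsb, as given above, and the part of these in its flat value was not tested. At 24 h 1 of the 11 fell, Dhcr7 at -0.96 (adjusted p = 1.84e-07), and the median was -0.58. The interaction passed for 10 of the 11, all negative and all but Ebp. From 3 h to 24 h 2 rose (Lss and Dhcr7) and 1 fell (Tm7sf2) in control cells, and 9 fell in AclyM-KO. Among all genes tested, 1.41% rose at 3 h, 0.479% fell at 24 h and 4.66% had a negative interaction. Over time, 20.9% of all genes rose and 19.5% fell in control cells, and 2383 of 11904 fell in AclyM-KO. The counts over time in control cells did not exceed those shares.

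The branches that use isoprenoids for purposes other than sterols were counted in the same way. Of 10 genes of protein prenylation and the processing of prenylated proteins, such as the farnesyltransferase subunits Fnta and Fntb, none changed with genotype at 3 h or 24 h, with medians of 0.05 and 0.02. Their log2 fold changes ran from -0.10 (Fnta) to 0.39 (Rabggta) at 3 h. Of 7 genes that build polyprenyl chains for ubiquinone and dolichol, none changed with genotype at either time, with medians of 0.02 and -0.07, although Srd5a3, polyprenol reductase, had an interaction of -0.40 (adjusted p = 0.0126). A count of 0 in lists of this size is near the share of all genes called, 2.01% at 3 h and 1.38% at 24 h, and the difference from the sterol lists was not tested. No interaction passed in the prenylation list.

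Of 7 genes of sterol sensing by SREBP2, 2 rose in AclyM-KO at 3 h, namely Insig1, which holds SREBP2 back, at 0.78 (adjusted p = 4.92e-11), and Stard4, a cholesterol carrier, at 0.80 (adjusted p = 3.98e-08). At 24 h Stard4 fell by 0.78 (adjusted p = 6.45e-08), and Insig1 at -0.70 (adjusted p = 1.69e-09) was inside the fold threshold. Srebf2, which encodes SREBP2, was at 0.45 at 3 h (adjusted p = 3.23e-06) and -0.32 at 24 h (adjusted p = 0.000508), both inside the fold threshold. Its interaction was -0.78 (adjusted p = 3.1e-07), that of Insig1 -1.47 (adjusted p = 1.43e-13) and that of Stard4 -1.58 (adjusted p = 4.99e-11), and these 3 were the ones that passed. Scap and Mbtps2, of the same machinery, had log2 fold changes of 0.06 and 0.01 at 3 h. Insig2 was at 0.04 at 3 h (adjusted p = 0.784) and at 0.28 at 24 h (adjusted p = 0.0102), inside the fold threshold. At 24 h it was the only 1 of the 7 with a positive log2 fold change, the opposite side from Insig1. The shares of all genes were 1.41% called higher at 3 h, 0.479% called lower at 24 h and 4.66% with a negative interaction.

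**Figure D5:**
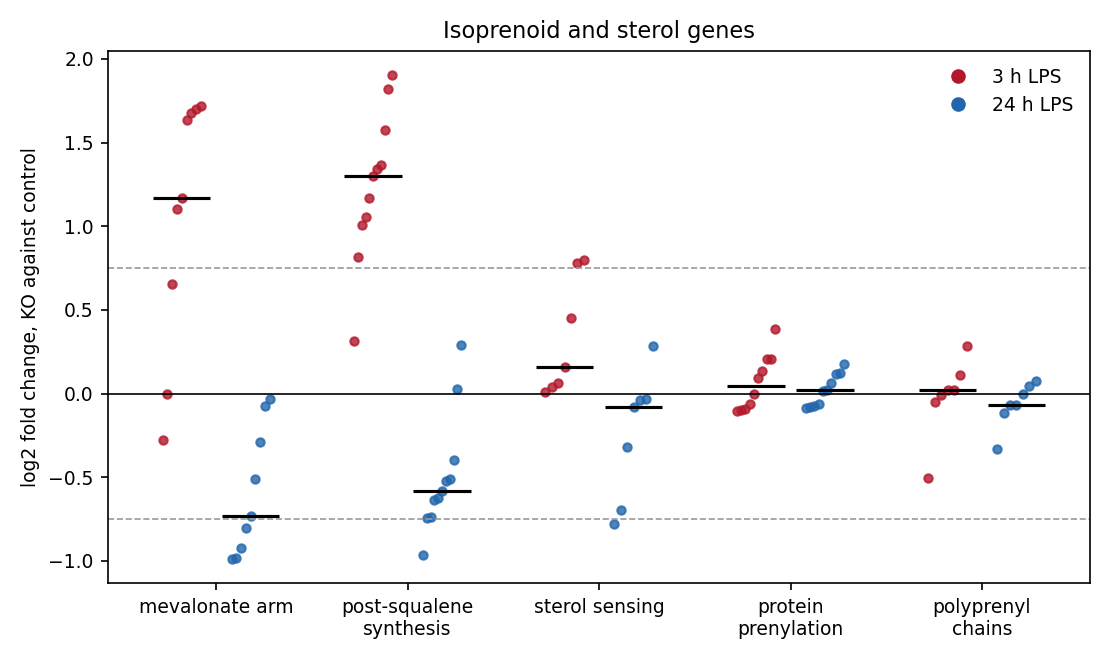
Log2 fold change of AclyM-KO against control after 3 h (red) and 24 h (blue) of LPS for each gene of 5 lists, with black bars at list medians and dashed lines at log2 fold changes of -0.75 and 0.75. The medians of the mevalonate arm and post-squalene lists are 1.17 and 1.30 at 3 h and -0.73 and -0.58 at 24 h, and those of the prenylation and polyprenyl lists stay within 0.07 of 0.

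The members were also compared with each other by their pattern over the 12 libraries, which share group and preparation, so these correlations are descriptions. Against the mean standardized log2 CPM of the other 8, Fdps had a Pearson r of 0.95, Mvk 0.93, Pmvk 0.88 and Acat2 0.82. Idi1 was at 0.63 and Hmgcs1 at 0.61. Mvd at 0.12, Fdft1 at 0.07 and Ggps1 at -0.54 followed the others least. Among 6951 other genes with a group mean of at least 10 CPM, those most like the mean profile of the 9 were Hsd17b7 (r = 0.99), Msmo1 (0.97), Tkt (0.97), Cyb5b (0.97), Nsdhl (0.96), Fads2 (0.95), Scd1 (0.95), Trp53inp2 (0.94) and Fasn (0.94). Hsd17b7, Msmo1 and Nsdhl act in the sterol steps after squalene and are on that list. Fads2 and Scd1 encode fatty acid desaturases and Fasn the fatty acid synthase. Their log2 fold changes in AclyM-KO were 2.34, 2.25 and 1.61 at 3 h and -1.24, -0.83 and -1.03 at 24 h. Tkt, of the pentose phosphate pathway, had smaller ones, of 0.43 and -0.27.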

How the data were processed

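Strand-specific mRNA libraries of 13 macrophage samples were sequenced and, per the submitters' processing notes and the study's methods, processed with CASAVA 1.8.2 and aligned to mm10 with STAR 2.5.2b. The authors deposited raw tag counts, summed per RefSeq transcript with HOMER. Its strand and isoform options are not given in the sources used here. Of 35745 rows, 35628 were matched to symbols by RefSeq and GENCODE vM21 names, and the 117 others held 1.129% of counts. The row with the highest total represented each gene.

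Counts were tested with edgeR 4.0.16 (R 4.3.3) by a robust quasi-likelihood fit over 4 groups with TMM normalization and filterByExpr, which kept 19621 rows. Groups came from the labels. Control 24 h replicate 1 was left out for its depth. A gene was changed at a Benjamini-Hochberg adjusted p under 0.05 over all rows and a log2 fold change beyond 0.75, and the interaction had no fold threshold. CPM are counts scaled to the TMM-adjusted library size, and levels per kilobase divide by the GENCODE transcript length. Each standard error (SE) of a log2 fold change was worked back from the test, as its absolute value divided by the square root of the F statistic. The 95% intervals are 1.96 such standard errors each way. This is a normal quantile, so with this few libraries the intervals may be too narrow. The tests between genotypes were tried on simulated counts. All groups there shared a single expression profile, apart from genes changed in AclyM-KO at 3 h. The tests over time and of the interaction were not tried in this way. The fit had no replicate block, which was used as an alternative. Deviations of same-numbered libraries from their group means had r from -0.03 to 0.07 in 15 pairs. Between AclyM-KO at 24 h and 3 h the same-numbered pairs had r of 0.0491, 0.0488 and 0.0283, and the differently numbered pairs were negative. Deviations cancel out within a group, so positive values for same-numbered pairs push the others downwards, and their sign is no separate evidence. The highest r of all pairs, 0.0825, was between control 24 h replicate 4 and control 3 h replicate 1, which differ in number. These low values do not exclude a pairing, and the numbers in the labels need not mark one.

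The text names the 9 members, Acly, related copies, list genes that changed or are set beside a member or another list gene, and the genes most like the members in pattern. Some genes of this rule are not reported here. Members, lists and tests were chosen with earlier results of these data known. Alternatives were DESeq2 1.42.0, RLE size factors, no filter, 1 row per gene, only the compared groups, a replicate block, each library left out, control 24 h replicate 1 included and a log2 fold change threshold of 1. Upstream sequences came from RefSeq on GRCm38.p6 and gene positions from GENCODE vM21. Shared stretches were counted over GENCODE transcripts.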

Additional observations from a re-analysis of the deposited data

Results flagged for a closer look

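In control 24 h replicate 1, which held 34467 counts and where 1 count equals 22.4 CPM, 5 of the 9 mevalonate arm genes stood far from the other 3 libraries of the group: Acat2 at 44.8 CPM, Hmgcs1 at 246.5 CPM, Pmvk at 0 CPM, Fdps at 67.2 CPM and Ggps1 at 44.8 CPM. These values rest on 2, 11, 0, 3 and 2 counts. For Acat2, Pmvk, Fdps and Ggps1 no whole count at this depth gives a CPM within the range of the other 3 libraries.

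The effect of the genotype differed between 3 h and 24 h of LPS for 7 of the 9 genes by the interaction test, with log2 differences of -2.45 for Acat2, -1.46 for Hmgcs1, -2.09 for Mvk, -1.68 for Pmvk, -1.97 for Mvd, -2.68 for Idi1 and -2.56 for Fdps.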

How the results depend on the processing

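Over 845 values of single genes under the alternatives, 815 kept their direction and their side of the thresholds, 14 lost the call, 9 gained it and 7 turned sign. The turned values were all close to 0: Fdft1 at 3 h was 0.0025 with DESeq2 and 0.0042 with RLE size factors, and ran from -0.029 to 0.0389 with each library left out (the highest without KO 3 h replicate 2, 0.0177 without control 3 h replicate 2, 0.0005 without control 3 h replicate 3). Ggps1 at 24 h ran from -0.1135 to 0.0272 (the highest without KO 24 h replicate 2, 0.0070 without control 24 h replicate 3). With a log2 fold change threshold of 1 the changed genes were 0 of 9 between genotypes at 24 h, 3 over time in control and 5 over time in AclyM-KO. The other genes had log2 fold changes smaller than 1 in either direction. With each library left out, the counts were 6 to 6 between genotypes at 3 h, 3 to 4 at 24 h, 4 to 6 over time in control, 8 to 9 over time in AclyM-KO and 7 to 7 for the interaction. At 24 h Acat2 was called at -0.80 without KO 24 h replicate 3 or control 24 h replicate 3, and at -0.76 with no filter. Pmvk over time in AclyM-KO was -0.66 without KO 3 h replicate 2 and not called. Mvk over time in control was 0.69 without control 24 h replicate 2 and not called. DESeq2 gave 6 interactions, since its adjusted p for Idi1 was NA. With the replicate block, the counts were 6, 3, 4, 9 and 7 in the same order, with Pmvk over time in control at 0.73 the only call lost. Only control at 24 h has a replicate 4, so the block takes up that library and this group rests on replicates 2 and 3. Pmvk over time in control was also 0.73 with control 24 h replicate 4 left out. The blocked counts are therefore not a check on pairing alone. The members' calls were the same with control 24 h replicate 1 included. The lowest counts, of Idi1 at 24 h (5 to 43), limit what can be said of it. The causes were not tested.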
